A study of Mus with 6 samples.

Results

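The genes described here carry proteins from the endoplasmic reticulum (ER) to the Golgi apparatus. They were taken as every array probe whose symbol in the platform annotation begins with Sec and a digit, with Cop followed by a, b1, b2, e, g or z1, with Tmed, Ergic, Gorasp, Golga or Trappc, or with Arf and a digit from 1 to 6. The rule used symbols and no measured value. It found 73 genes, measured by 157 probes, among 19057 genes with a symbol and 45281 probes on the array.

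Newly made secretory and membrane proteins enter the ER through the Sec61 channel and leave it in vesicles coated by COPII, whose shell is built of Sec23, Sec24, Sec13 and Sec31 proteins. Vesicles coated by COPI, recruited by ARF GTPases, return escaped proteins and receptors to the ER, and the Tmed proteins (the p24 family) and ERGIC proteins cycle between these compartments as cargo receptors. TRAPP complexes and golgins tether arriving vesicles, and GORASP proteins link Golgi cisternae. This route delivers the surface receptors of blood progenitors, and in granulocytic precursors it also feeds the granules.

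RNA of 3 wild-type (WT) and 3 Klf4-deficient samples was hybridised to Illumina bead arrays for the mouse, 1 array per sample. The strain is given as C57BL/6 in both groups, and the Klf4-deficient samples, titled KO, are called knockout here. All 6 came from bone marrow of mice with chronic myeloid leukaemia induced by BCR-ABL p210 and taken 14 days after the transplant. Cells were sorted for green fluorescence, absence of lineage markers and presence of Sca-1 and c-Kit (LSK), the phenotype of stem and early progenitor cells, and are titled leukaemia stem cells. The groups therefore share the oncogene, the transplant and the sort, and differ by label in Klf4, a zinc finger transcription factor. The sources used here do not give the Klf4 allele, how it was deleted, the animals' age or the number of mice behind a sample. Nothing says that the samples of a group are from separate mice, so the spread behind each p-value may be technical.

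The arrays had 7082 to 7214 probes above an intensity of 32, the floor to which lower values were set before log2. One array stood apart. Over the 18270 probes above the floor on at least 1 array, Pearson's r of WT replicate 3 against each other array was 0.287 to 0.299, and among the other 5 arrays 0.662 to 0.725, across probes, which are not independent replicates. Results that rest on it are given with and without it. The 3 Klf4 probes exceeded the floor once on the 6 arrays, with 51.9 in WT replicate 2, so the knockout labels could not be checked. Of the sort markers, c-Kit (Kit) was above the floor on 1 WT and 2 knockout arrays on its brightest probe. Ly6a, which encodes Sca-1, had no probe under that symbol in the annotation used, so it could not be checked. Of 7 plasma cell markers, the professional secretory cells of the marrow, 4 exceeded the floor on any array. Their intensity, summed over each gene's brightest probe, was 28.1 to 148.4 in WT and 20.8 to 56.6 in knockout arrays. Irf4, Mzb1 and Tnfrsf17 stayed at or below the floor throughout. Genes of granule-making cells were far brighter by the same sum. Mast cell and basophil markers stood at 4255 to 9511 in WT and 5023 to 7747 in knockout arrays. Neutrophil markers stood at 2056 to 7486 and 1995 to 2958.

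Signal was found for a part of the trafficking probes. Of the 157 probes, 87 exceeded the floor on at least 1 array (55.4%, against 40.3% of all probes) and entered the test, for 56 of the 73 genes. A further 70 probes stayed at or below it on all arrays. The 17 genes with no probe above the floor were Arf4, the coat and exit-site genes Sec16a, Sec23a, Sec23ip, Sec24b, Sec24d and Sec31b, the translocon genes Sec61b and Sec62, the tethers Trappc2, Trappc5, Trappc6a and Trappc13, the Golga genes Golga4 and Golga7b, and Tmed11 and Sec14l5. For these the arrays give only an upper bound. Of the 87 tested probes, 33 were above the floor on a single array, 30 reached it on no knockout array and 12 on no WT array, and 1, a Tmed9 probe, was above it on all 6.

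Comparing the knockout arrays with WT asks which of these transcripts differ when leukaemic LSK cells lack Klf4. None of the 87 probes passed the test (limma, Benjamini-Hochberg adjusted over all 18270 probes, lowest adjusted p among the members 0.595). At that threshold 0% of all probes were called. At an unadjusted p under 0.05 there were 6 member probes, 5 higher and 1 lower in knockout arrays, where 2.03% of all tested probes reached that level (1.46% higher and 0.575% lower). The 3 knockout values lay wholly above or wholly below the 3 WT values for 7 member probes of 6 genes, where 3.09% of all tested probes did so, 2.13% with the knockout higher and 0.958% with it lower. These were probes of Ergic2, Ergic3, Trappc3 (2 probes), Trappc4 and Sec11c, all higher in knockout arrays, and 1 probe of Gorasp2, lower. Over all 87 probes 41 were higher and 46 lower, with a median difference of -0.04 (log2), beside -0.05 over all tested probes. The filter fixed part of these signs. The 30 probes with every knockout array at the floor could only be lower, and the 12 with every WT array there only higher. This applies to the counts by role below as well. Of the 42 member probes above 32 on at least 3 arrays, 29 were higher and 13 lower (median 0.40, beside 0.22 over all such probes). That filter can also be met by the arrays of 1 group alone, as by Trappc4 on ILMN_1225507. The 42 include 9 probes, described below, on which WT replicate 3 was the lowest array and whose differences were all positive. In bulk RNA, fewer cells of a type and less RNA per cell cannot be told apart.

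**Figure D1:**
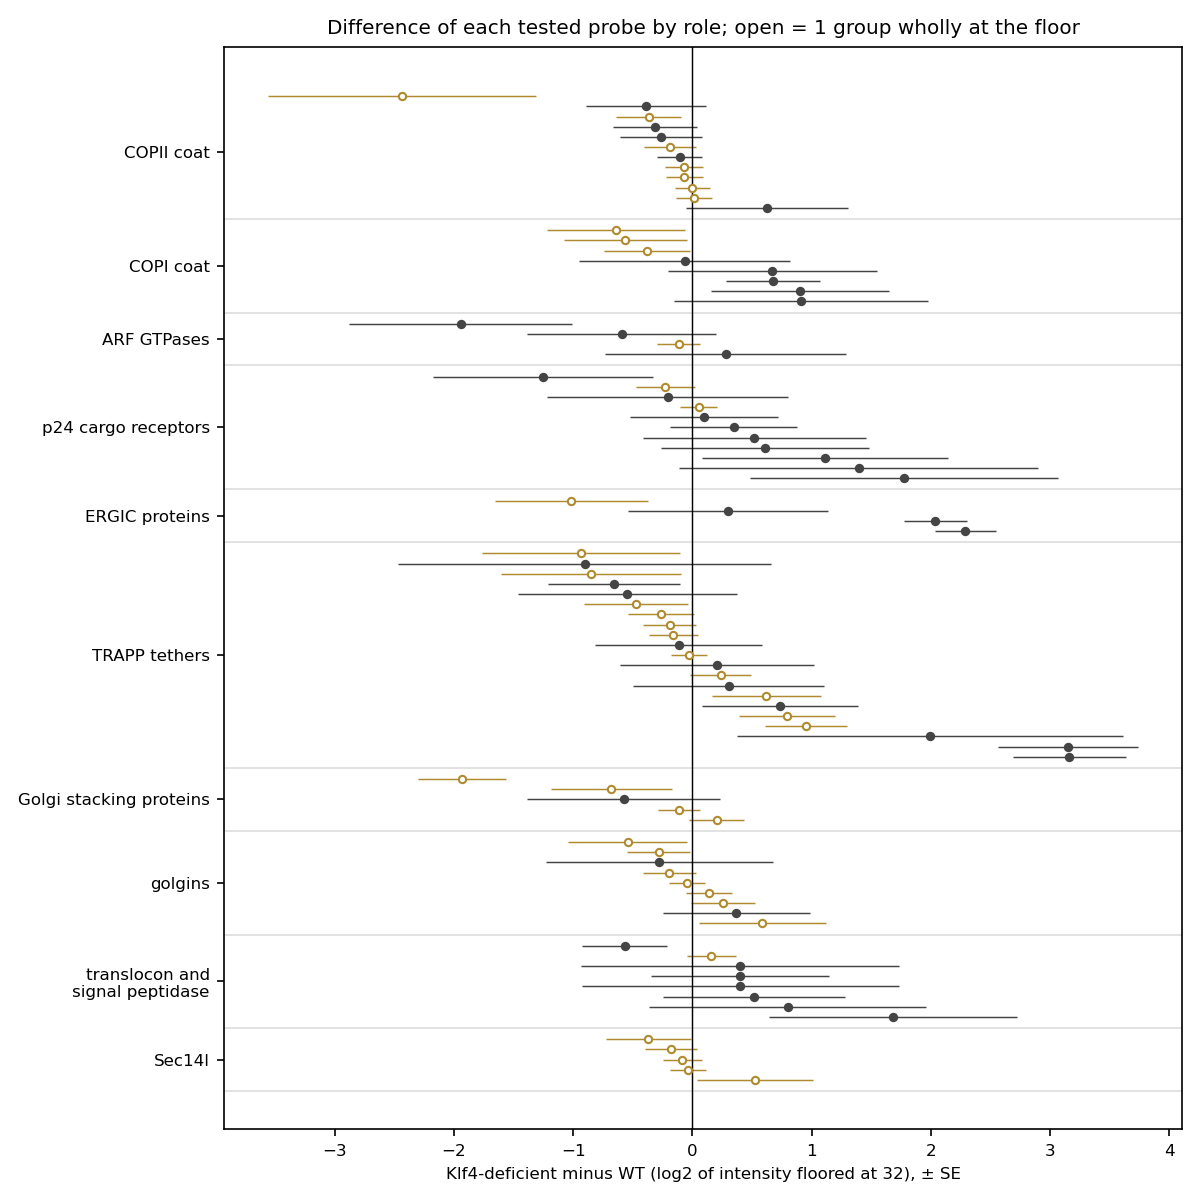
Difference between knockout and WT arrays for each of the 87 tested probes, grouped by role, on a log2 scale of intensities floored at 32. Points are limma estimates with their SE (n = 3 per group), and open points have 1 group wholly at the floor. The points lie on both sides of 0 in every group, and those farthest to the right are the 2 Trappc3 probes at 3.15 and 3.16.

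Single markers of the lineage lists, picked for their values, also separated the groups, where 3.09% of all tested probes had groups apart. Of 5 T and NK cell genes with a probe, 4 exceeded the floor on at least 1 array, and their summed intensity was 167.3 to 296.9 in knockout arrays and 39.2 to 75.2 in WT. In that sum Thy1 (ILMN_2644350) read 113, 187.2 and 146 in knockout and 24.4, 26 and -7 in WT arrays, and Nkg7 read 115, 28.3 and 3.7 against 14.8, 14 and 5.4. Another Thy1 probe, ILMN_2474578, was above the floor only in knockout replicate 3 (34.6), at 0.04 ± 0.15. The T cell receptor subunit Cd3e was above the floor only in WT replicate 3 (56.3), Cd3g only in knockout replicate 2 (51.6), and the NK gene Klrb1c on no array. The heme synthesis enzyme Alas2, an erythroid marker, read 172, 114.1 and 160.7 in knockout and 8.8, 26.1 and -15 in WT arrays, while the erythroid sum overlapped (2299 to 3257 against 866 to 2915). The class II gene H2-Ab1 read -4.3, 43.2 and 1.5 in knockout and 103, 417 and 1167.1 in WT arrays on ILMN_1226525. The monocyte and dendritic sum overlapped (1211 to 3236 against 2388 to 4425). On ILMN_2631423 the H2-Ab1 groups overlapped, at -2.54 ± 1.31, and on ILMN_2913716 they lay apart, at -1.10 ± 0.54. The limma adjusted p was 0.595 for Thy1 on ILMN_2644350 and for Alas2, 0.909 for the other Thy1 probe and 0.715 for each H2-Ab1 probe. The part of cells of these lineages in the trafficking values was not tested.

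Among the cargo receptors, the probes whose groups lay apart belonged to the ERGIC proteins. ERGIC2 and ERGIC3 form a complex of the intermediate compartment that cycles with COPI and COPII vesicles. Ergic3 (ILMN_2992541) read 39.3, 21.1 and -14.5 in WT replicates 1 to 3 and 187.5, 201.3 and 124.8 in knockout replicates 1 to 3. The groups did not overlap, and only WT replicate 1 was above the floor in WT. The difference was 2.29 ± 0.25 (log2, SE, n = 3 per group, 95% interval 1.64 to 2.94), or 4.89-fold on the floored scale, with a limma adjusted p of 0.595. A second Ergic3 probe stayed below the floor on all arrays.

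Ergic2 gave opposite answers on its 2 probes. On ILMN_1256488 it read 16.9, 45 and 11.5 in WT and 117.4, 147.9 and 183.8 in knockout arrays, a difference of 2.04 ± 0.26 (SE, 95% interval 1.37 to 2.71, limma adjusted p = 0.667). On ILMN_1241196 it read 50.5, 16.3 and 167.8 in WT and 19.7, 19 and 22.4 in knockout arrays, where none exceeded the floor. That difference was -1.02 ± 0.64 (limma adjusted p = 0.715) and rested mostly on WT replicate 3, without which it was -0.33 ± 0.27. Without the same array, the first probe stood at 1.96 ± 0.31 and Ergic3 at 2.24 ± 0.31. Ergic1, another protein of the compartment, read 29.5, 98.9 and 38.4 in WT and 183.5, 31.1 and 38.4 in knockout arrays, with overlapping groups and a difference of 0.30 ± 0.84.

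**Figure D2:**
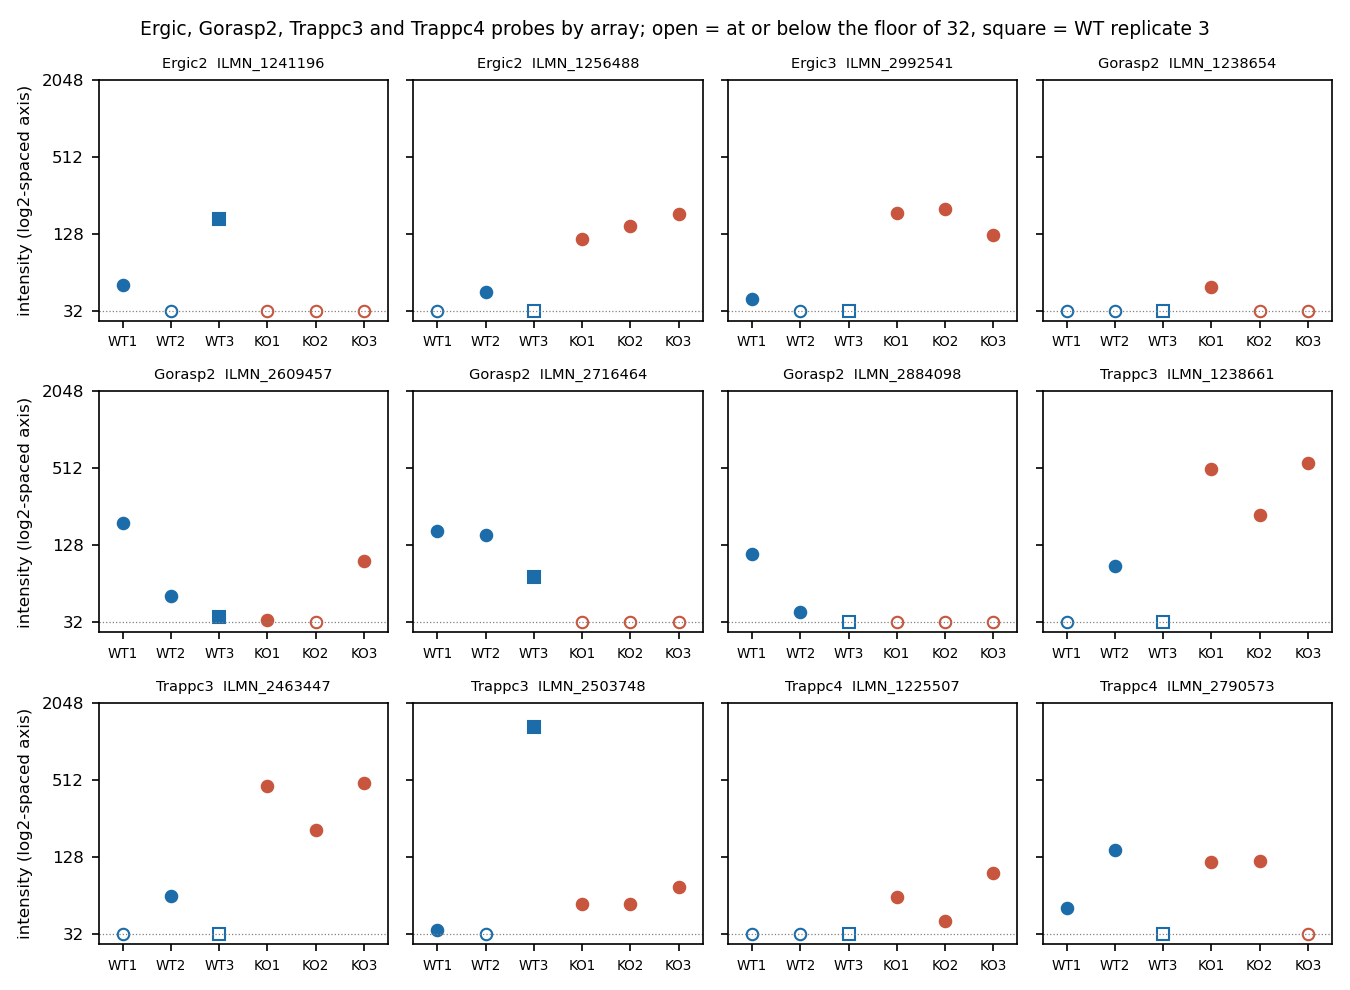
Intensity on each array of every tested probe of Ergic2, Ergic3, Gorasp2, Trappc3 and Trappc4, on a log2-spaced axis with values at or below 32 drawn open at 32. Blue is WT, red is knockout (KO) and the square is WT replicate 3. The first Trappc3 probe and its neighbour show the same pattern across arrays, while Trappc3 probe ILMN_2503748 has 1325.8 in WT replicate 3 and 28.5 to 74.8 elsewhere.

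The p24 family pairs cargo with both coats, and its members form mixed complexes. Of 11 tested probes of 7 Tmed genes, 8 were higher and 3 lower in knockout arrays, with a median of 0.35 (log2), and 0 had an unadjusted p under 0.05. Tmed9 (ILMN_2981871) read 1230, 1233.8 and 123.8 in WT and 1989, 1210.5 and 791.6 in knockout arrays. Its WT replicates 1 and 2 lay inside the knockout range and WT replicate 3 far below it. The difference was 1.11 ± 1.03 (SE, limma adjusted p = 0.715), and 0.01 ± 0.45 without WT replicate 3.

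Tmed3 had the same feature in both directions. ILMN_2850937 read 1115.2, 906 and 10.5 in WT and 829.5, 1397.4 and 509.5 in knockout arrays, a difference of 1.40 ± 1.51 that turned to -0.26 ± 0.50 without WT replicate 3. ILMN_2650532 read 75.2, 27.6 and 367.6 in WT and 47, 30.3 and 43.4 in knockout arrays, a difference of -1.25 ± 0.93 that became -0.28 ± 0.46. WT replicate 3 was thus the lowest of the 6 arrays on one probe of the gene and the highest on the other. Tmed10, a central p24 subunit, had 3 tested probes with differences of 0.52 to 1.78, all with overlapping groups. On ILMN_3002943 a single array stood out, knockout replicate 1 with 1004.6, against 58.9 and 46.1 in its group and 66, 17.6 and 0.6 in WT. Without WT replicate 3 the median of the 10 Tmed probes still tested was 0.16, with 7 higher and 3 lower.

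The COPII group was drawn by symbol and also holds Sec22 and Sec16 probes, which are not among the shell proteins. In it 12 probes of 8 genes were tested, 2 higher and 10 lower in knockout arrays (median -0.15). None had an unadjusted p under 0.05. In this group 6 probes had all knockout arrays at the floor and could only be lower, and 1 had all WT arrays there. The counts are therefore no result about the coat. Without WT replicate 3 the count was 4 higher and 6 lower of 10 probes. The outer coat gene Sec13, shared with the nuclear pore, read 27.7, 65.4 and -8.8 in WT and 8.6, 38.1 and -7.1 in knockout arrays. Sec31a, its partner in the outer cage, read 58.4, 37.5 and -4.4 in WT and 20.3, 14.2 and 13.2 in knockout arrays on ILMN_2705966. Their differences were -0.26 ± 0.34 and -0.37 ± 0.27. The other tested Sec31a probe, ILMN_2765024, stood at 0.01 ± 0.15.

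Sec22b differed most between its probes in that group. It encodes a SNARE of ER to Golgi fusion, counted here by its symbol, and is no coat protein. On ILMN_2473674 it read 638.6, 253.6 and -1.4 in WT and 14.1, 23.1 and 21.5 in knockout arrays. On the floored scale, to which WT replicate 3 was also raised, it was 5.41-fold lower in knockout arrays, which is no lower bound. With 2 of 3 WT arrays above the floor, the difference was -2.44 ± 1.13 (95% interval -5.29 to 0.42, limma adjusted p = 0.715). Without WT replicate 3 this became -3.65 ± 0.45 (unadjusted p = 0.00098, limma adjusted p = 0.432), and without WT replicate 1 it became -1.49 ± 0.95 (unadjusted p = 0.188). The other probe, ILMN_2906847, read 72.3, 54.8 and 18.3 in WT and 91.8, 27.9 and 157.8 in knockout arrays, a difference of 0.62 ± 0.68 with the opposite sign.

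For COPI, the coat that returns cargo to the ER, 8 probes of 7 genes were tested, 4 higher and 4 lower (median 0.30). None had an unadjusted p under 0.05. The alpha subunit, Copa, read 35.2, 69 and 27.3 in WT and 75.8, 84.4 and 49.9 in knockout arrays. Copb2, the beta-prime subunit, read 342.8, 107.2 and 22.4 against 471.8, 90.4 and 182.3, and Copb1, the beta subunit, 25.8, 120.4 and -5.3 against 16, 78.9 and 196.3. The groups overlapped for all 3, with differences of 0.68 ± 0.40, 0.91 ± 1.06 and 0.67 ± 0.88. The Copb2 difference was 0.05 ± 0.93 without WT replicate 3, and that of Copb1 0.01 without knockout replicate 3. The gamma subunits Copg1 (120.8 on ILMN_1233848) and Copg2 (102.8) were above the floor in WT replicate 3 alone on those probes.

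ARF GTPases recruit COPI to Golgi membranes, except for ARF6, which acts at the plasma membrane. Of 4 tested Arf probes, 1 was higher and 3 lower (median -0.35), with 0 at an unadjusted p under 0.05. Arf3 read 260.8, 403.6 and 47.4 in WT and 16.3, 85.6 and 15.9 in knockout arrays. Knockout replicate 2 lay above WT replicate 3, so the groups overlapped, and the difference was -1.94 ± 0.93 (95% interval -4.32 to 0.43, limma adjusted p = 0.715). Without WT replicate 3 it was -2.87 ± 0.58 (unadjusted p = 0.0065, adjusted p = 0.721). Arf6 read 434.2, 220.5 and -11.4 in WT and 170.7, 224.3 and 143 in knockout arrays, and its difference of 0.28 ± 1.01 turned to -0.81 ± 0.41 without that array.

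The TRAPP tethers held the most probes, 41 of 14 genes, of which 21 of 10 genes were tested. Of these, 10 were higher and 11 lower in knockout arrays (median -0.03), and the 3 at an unadjusted p under 0.05 were all higher. Trappc3, a core subunit that all TRAPP complexes share, carried the highest differences of the whole set. ILMN_2463447 read -6.8, 63.3 and 4.8 in WT and 458.8, 207.6 and 486.8 in knockout arrays. ILMN_1238661 read 0.8, 88.3 and 18.9 in WT and 508.6, 220.6 and 568.7 in knockout arrays. On both probes WT replicate 2 was the 1 WT array above the floor, and knockout replicate 2 was the lowest of its group.

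The Trappc3 differences were 3.16 ± 0.47 (95% interval 1.96 to 4.36, unadjusted p = 0.00096) and 3.15 ± 0.59 (1.66 to 4.65, unadjusted p = 0.0027), or 8.94-fold and 8.90-fold on the floored scale. Both had a limma adjusted p of 0.715. Leaving out each array in turn gave 2.94 to 3.56 and 2.90 to 3.64. Whether these 2 probes overlap on the transcript was not analysed here, so they may not be separate measurements. Probe ILMN_2503748 of the gene read 34.4, 28.5 and 1325.8 in WT and 54.7, 54.5 and 74.8 in knockout arrays, a difference of -0.90 ± 1.56. Without WT replicate 3 that probe also had its groups apart, with knockout arrays higher by 0.87 ± 0.25 (unadjusted p = 0.022, adjusted p = 0.836). The last Trappc3 probe stayed below the floor.

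Trappc4, another core subunit, read 17.5, 5.1 and -4.9 in WT and 61.9, 40.4 and 94.6 in knockout arrays on ILMN_1225507. With all WT arrays at the floor it was at least 1.93-fold higher (0.95 ± 0.34, unadjusted p = 0.038, limma adjusted p = 0.715). Its other probe read 50.9, 145.2 and 2.8 against 116.8, 119 and 7.9, with overlapping groups and a difference of 0.30 ± 0.80. Trappc12, a subunit of the larger TRAPP III complex, read 2134.5, 770.6 and -7.6 in WT and 2162.3, 1263.6 and 1212.3 in knockout arrays on ILMN_2578216. Its difference of 1.99 ± 1.62 was 0.22 ± 0.57 without WT replicate 3. Trappc11, a subunit of the same complex singled out after its values were seen, read 28.8, 38.9 and 220.8 in WT and 68.5, 102.2 and 60.5 in knockout arrays. It went from 0.21 ± 0.81 to 1.09 ± 0.32 without WT replicate 3 (unadjusted p = 0.024, adjusted p = 0.836).

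Of the Golgi matrix, GORASP2 (GRASP55) joins cisternae of the medial and trans Golgi. Gorasp2 read 165, 155.1 and 71.7 in WT and 10.3, 10.5 and 13.6 in knockout arrays on ILMN_2716464. Every WT array was above the floor and every knockout array below it. It was at least 3.83-fold lower in knockout arrays (-1.94 ± 0.37, 95% interval -2.87 to -0.998, unadjusted p = 0.0029, limma adjusted p = 0.715), and the difference was -2.32 ± 0.18 without WT replicate 3 (adjusted p = 0.267).

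The other 3 tested Gorasp2 probes had smaller differences. ILMN_2884098 read 109.8, 38.3 and 6.7 in WT and -9.1, 1.4 and -3.6 in knockout arrays, with WT replicate 3 at the floor and a difference of -0.68 ± 0.51. Without WT replicate 3 its groups lay apart, at -1.02 ± 0.51 (limma adjusted p = 0.836). ILMN_2609457 read 192.4, 50.9 and 34.8 in WT and 33.5, 13.4 and 95.8 in knockout arrays. The groups overlapped there, at -0.58 ± 0.81. The value turned to 0.15 without WT replicate 1 and was -1.08 ± 0.84 without WT replicate 3. On ILMN_1238654 only knockout replicate 1 exceeded the floor (48.9). Gorasp1, the cis-Golgi relative, was above the floor on 1 array of 1 probe, WT replicate 3 with 40.1.

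Golgins are coiled-coil tethers of the Golgi surface. The group was drawn by symbol, and 9 probes of 5 Golga genes were tested, 4 higher and 5 lower (median -0.04, differences -0.54 to 0.59). None had an unadjusted p under 0.05. Golga2, which encodes the cis-Golgi tether GM130, read 56.4, 17 and 26.5 in WT and 118.5, 19.7 and 32.9 in knockout arrays on ILMN_2715201. Golga7 was counted by its symbol and is no tether of this kind, but works with a palmitoyltransferase on RAS proteins. It read -3, 202.1 and -0.4 in WT and 5.7, 113.8 and -9.2 in knockout arrays on ILMN_3157764. It was above the floor in replicate 2 of each group alone. Their differences were 0.37 ± 0.61 and -0.28 ± 0.95, and both changed sign when 1 array was left out, to -0.25 for Golga2 without knockout replicate 1 and to 0.61 for Golga7 without WT replicate 2.

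At the ER entry, 8 probes of translocon, translocation and signal peptidase genes were tested. Of these, 7 were higher and 1 lower in knockout arrays with a median of 0.40, and 3 were higher and 5 lower without WT replicate 3 with a median of -0.28. Sec11c, a catalytic subunit of signal peptidase, read 433.8, 278.1 and 1.7 in WT and 436.4, 442.6 and 660.3 in knockout arrays. Its groups did not overlap, although WT replicate 1 and knockout replicate 1 were nearly level. The difference of 1.68 ± 1.04 (limma adjusted p = 0.715) was 0.54 ± 0.34 without WT replicate 3.

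Sec63, which couples chaperones to the translocon, had 3 tested probes with a like order of the arrays. ILMN_2694578 read 438.1, 67 and -2.8 in WT and 263.5, 256.5 and 30.6 in knockout arrays. ILMN_2694579 read 453.1, 49.3 and -9.9 against 244.6, 209.1 and 17.5, and ILMN_2714822 read 186.7, 94.9 and 10.5 against 343, 272.6 and -3.2. Replicate 3 was the lowest array of each group on all 3 probes. The spread within groups exceeded the differences of 0.40 to 0.80. Sec61g, a channel subunit, read 103.1, 239.5 and 3.5 in WT and 121, 117 and 164.4 in knockout arrays, and Sec11a 113.7, 173.1 and 11.9 against 160.8, 64.8 and 139.1.

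The 11 Sec14l probes joined the set through their symbols alone, since these genes encode lipid-binding proteins with no place in the coats. Of 5 tested, 1 was higher and 4 lower, and each was above the floor on a single array, such as Sec14l3 with 69.2 in WT replicate 2 and a Sec14l4 probe with 38 in WT replicate 3.

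WT replicate 3 was an extreme for most of the probes with signal. Over the 87 probes its correlation with the other arrays was -0.11 to -0.02, and theirs with each other 0.495 to 0.766, as a description across probes. It was the lowest of the 6 arrays for 32 of the 87 probes and the highest for 21. There were 9 member probes above the floor on all 5 other arrays, of Copa, Copb2, Arf6, Sec11a, Sec11c, Sec61g, Tmed3, Tmed9 and Trappc12. WT replicate 3 was the lowest array on all 9 and at the floor on 8. Among all probes with signal on those 5 arrays, it was the lowest for 68.2% and at the floor for 54.9% of 2657. Conversely, 11 member probes were above the floor in WT replicate 3 alone, at 32.1 to 120.8.

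**Figure D3:**
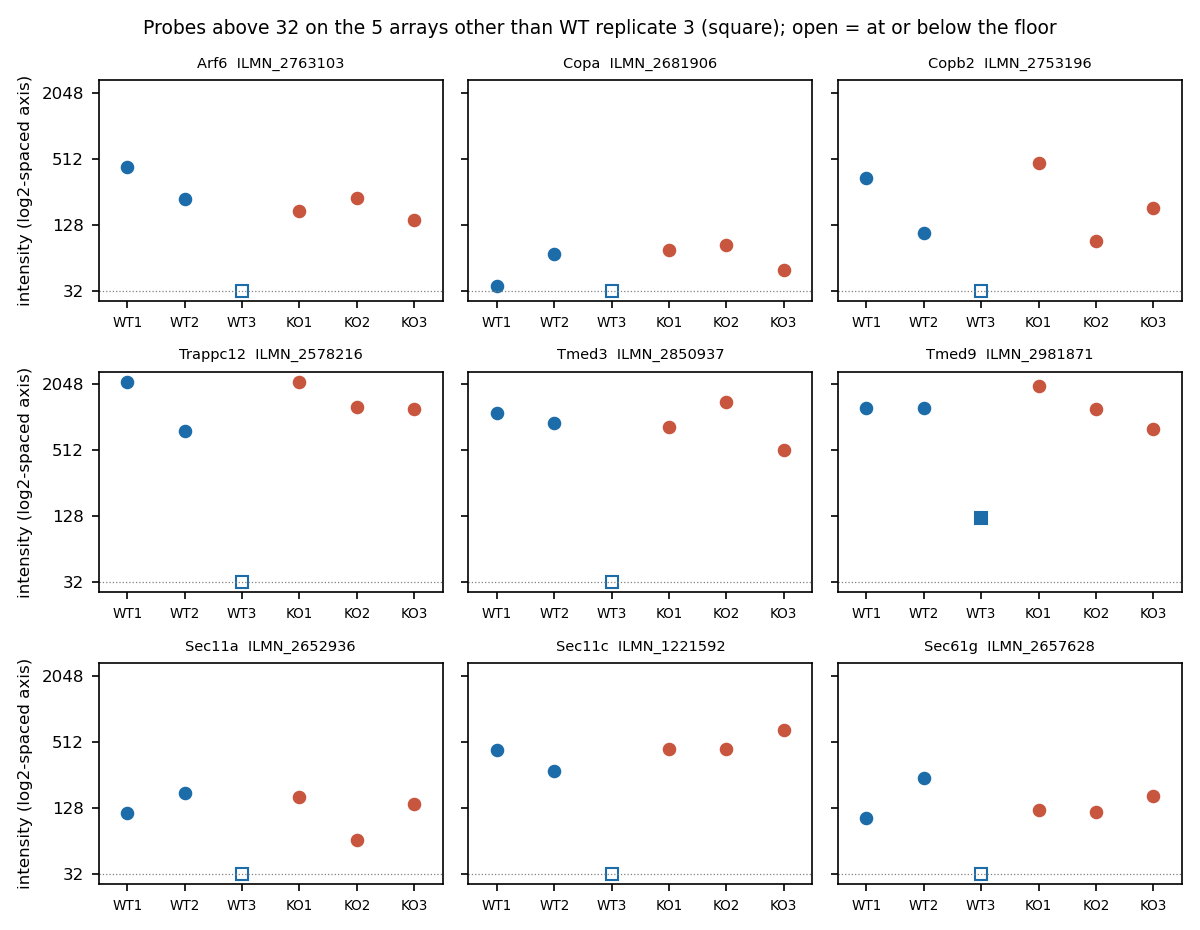
Intensity on each array of the 9 member probes above 32 on every array other than WT replicate 3, on a log2-spaced axis with values at or below 32 drawn open at 32. Blue is WT, red is knockout (KO) and the square is WT replicate 3. WT replicate 3 is the lowest array in each panel, and the range of WT replicates 1 and 2 overlaps the knockout range in 8 of the 9. Without WT replicate 3, groups lay apart for 8.47% of all tested probes, a set that also holds probes at the floor on some arrays.

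Leaving out WT replicate 3 left 76 of the 87 probes above the floor somewhere, and 13 of these changed sign. The median difference was -0.02, beside 0.06 over all tested probes, with 38 higher and 38 lower. None passed the test (lowest adjusted p 0.267, that Gorasp2 probe), and 0% of all probes did. An unadjusted p under 0.05 was reached by 9, 6 higher and 3 lower, where 3.56% of all tested probes reached it, 1.2% higher and 2.35% lower. These were the probes named above of Ergic2, Ergic3, Trappc3 (3 probes) and Trappc11, all higher, and of Gorasp2, Sec22b and Arf3, all lower. Trappc4 was no longer among them (unadjusted p = 0.084).

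**Figure D4:**
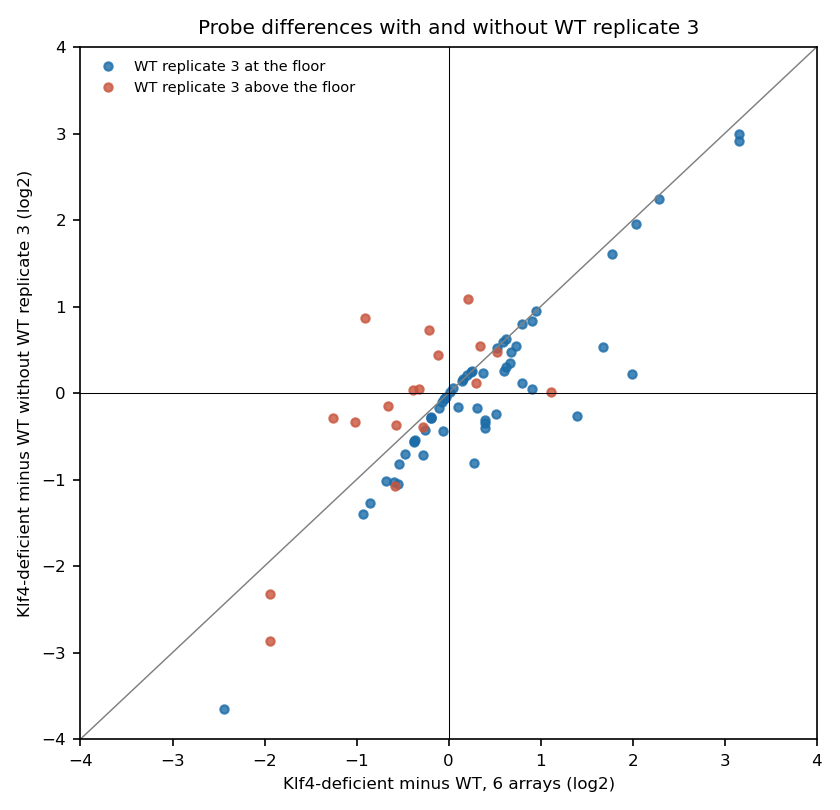
Knockout minus WT difference (log2) of each of 76 member probes with all 6 arrays (horizontal) and without WT replicate 3 (vertical), with the line of equality. Blue points had WT replicate 3 at the floor and red points above it. The Ergic2, Ergic3 and 2 Trappc3 probes stay near the line at the upper right, Gorasp2, Arf3 and Sec22b lie at the lower left, and 13 points change sign.

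Probes of the same gene often disagreed. Of 21 member genes with several tested probes, 11 had differences of opposite sign and 10 of one sign. Opposite signs with both differences above 1 in size occurred for Ergic2 and Tmed3. Since probes of a gene may detect different transcript ends or splice forms, and probe sequences were not used here, which probe represents the gene was not tested. Representing each gene by its brightest probe put Trappc3 at -0.90, from the probe dominated by WT replicate 3, and the mean over its probes put it at 1.35.

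The remaining genes of the route, a list of SNAREs, RAB and ARF regulators, cargo receptors and tethers, were read from the same fit. Of 136 probes of 62 such genes, 89 were tested, 49 higher and 40 lower in knockout arrays (median 0.11, beside -0.05 over all tested probes), and 0 passed the test. An unadjusted p under 0.05 was reached by 5, 4 higher and 1 lower, where 2.03% of all tested probes reached it. The groups did not overlap for 6, where 3.09% of all tested probes had groups apart. One of these 6, chosen after its values were seen, was Rint1 on ILMN_1218880, with 19.3, 5.1 and -5.8 in WT and 61.7, 40.2 and 207.2 in knockout arrays (1.32 ± 0.64, unadjusted p = 0.09). Bcap29, an ER cargo receptor, read 46.7, 92.4 and -5.3 in WT and 157, 200.6 and 157.2 in knockout arrays on ILMN_2866752 (1.72 ± 0.43). Its brighter probe, ILMN_2645620, had overlapping groups and a difference of -0.22 ± 1.28, which was 1.23 ± 0.23 without WT replicate 3. The Golgi SNARE Stx5a read 48.8, 11.5 and 2.5 against 129.5, 57.9 and 123.3 (1.40 ± 0.40).

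The SNARE Vti1b and the ER-Golgi membrane protein Yipf5, with all WT arrays at the floor, were at least 2.74-fold and at least 1.73-fold higher. Ctage5, a partner of TANGO1 in the export of large cargo, was lower on ILMN_1259488, at -1.33 ± 0.44. That probe read 138, 280.1 and 121.4 in WT and 57.9, 98.5 and 52.1 in knockout arrays. Its other tested probes overlapped between groups, at 0.68 ± 1.48 on ILMN_2645138, the brightest, and -0.88 ± 0.89 on ILMN_2653619. Without WT replicate 3, ILMN_2653619 had its groups apart, at -1.81 ± 0.47 (limma unadjusted p = 0.0165, adjusted p = 0.836). ILMN_2645138 then stood at -0.18 ± 1.57. With all 6 arrays, the 5 probes at an unadjusted p under 0.05 did not overlap between groups and each had a limma adjusted p of 0.715. The groups overlapped for Rab2a, a RAB of the intermediate compartment (1341.7, 650 and 1008.4 against 2030.5, 1542.5 and 1285.4), for Kdelr1, the KDEL receptor (727.6, 349.2 and 886 against 1171.2, 216.5 and 236), and for Arl1, a trans-Golgi GTPase (312.7, 572.1 and 5.5 against 753.3, 430.1 and 79.6). Rab2a and Kdelr1 were above the floor on all 6 arrays, and WT replicate 3 was not their lowest array.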

How the data were processed

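The authors deposited background-subtracted intensities, 1 value per probe and array, on a linear scale. A service company prepared the targets and scanned the arrays, per the labels' protocols, and the submitters' processing notes name BeadStudio. The sources used here give neither its version nor the background and normalization methods. Intensities ran from -31 to 37007.2, and 45.3% to 45.6% of each array lay at or below 0. Sorted values of the 6 columns agreed within 5% or 0.15 at 95.4% of the ranks, so no further scaling was applied. Scaling of this kind hides a difference in total RNA. No column was left out.

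Intensities below 32 were raised to 32 before log2. Folds are on this floored scale. With 1 group wholly at the floor and every array of the other above it, the fold understates the difference and reads "at least". It then compares the mean log2 of the group above with the floor. Where both groups have arrays at the floor, the fold is no bound. Each probe above 32 on at least 1 array was tested on its own (18270 of 45281) with limma 3.58.1 (lmFit, eBayes) in R 4.3.3, Benjamini-Hochberg adjusted at a threshold of 0.05, with no replicate block. The R package data.table, version 1.17.8, read the values, and figures drawn with matplotlib 3.10.9. The fit was also run on simulated data with normal noise and no outlying array, the changed probes set well above the floor in WT. That run therefore does not bear on probes with WT near the floor or on WT replicate 3. The number of arrays, 3 per group, limits the precision. Symbols came from the platform annotation, in which 34885 probes had 1 symbol, 18 several and 10378 were not listed.

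Groups and replicate numbers were taken from sample titles. Named were member probes with an adjusted or unadjusted p under 0.05 or with groups that did not overlap, the 2 brightest probes of each role group, and probes of genes with opposite differences above 1 in size. Of the list of further ER to Golgi genes, those with an unadjusted p under 0.05 and the 3 brightest were named. Other probes given with values, such as those of Copa, Sec13, Ergic1 and Tmed10, were added outside this rule. The members and lists were chosen with earlier results of these data known. The 16 alternatives changed the floor, filter, probe summary, scaling, eBayes settings, array weights and replicate block, or left out 1 array. No sequences or genome positions were used here.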

Additional observations from a re-analysis of the deposited data

How the results depend on the processing

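No member probe was called under any of the 16 alternatives. Over all probes 1 was called with no filter and 1 with probes averaged per gene, against 0 in limma with 371 at an unadjusted p under 0.05. Ergic3 kept an unadjusted p under 0.05 under all 16, the first Ergic2 probe and the first Gorasp2 probe under 14, the 2 Trappc3 probes under 15 and Trappc4 under 3, and adjusted p for Ergic3 ranged from 0.21 to 0.921. The 6 member probes at an unadjusted p under 0.05 (2.03% of all probes) became 3 with the brightest probe of each gene (2.14%), 2 with the mean of probes (2.11%) and 10 with array weights (5 higher and 5 lower, 3.3%), and 5 to 9 when 1 array was left out (2.61% to 4.73%). The 7 whose groups did not overlap (3.09% of all probes) became 13 with 16 added and no floor (8.13%), 4 with the brightest probe (3.42%) and 3 with the mean (3.7%), and 8 to 13 when 1 array was left out (12 or 13 without WT replicate 1, 2 or 3 or knockout replicate 3, where 6.86% to 10.2% of all probes did so). The member median was 0.40 over probes above 32 on at least 3 arrays, where that of all probes was 0.22, and -0.11 to 0.03 when 1 array was left out. The 5 further ER to Golgi probes became 2 with a floor of 64, 3 with no filter, 1 above 32 on at least 3 arrays, 2 with the brightest probe, 3 with the mean and 0 with trend and robust eBayes, and 2 to 7 when 1 array was left out (3 without WT replicate 2, 7 without knockout replicate 1, 2 without knockout replicate 3). Their median was 0.28 with 16 added and no floor, 0.50 above 32 on at least 3 arrays and 0.31 with the brightest probe, and -0.027 to 0.38 when 1 array was left out.

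No named probe had passed the test, whether or not its sign changed. With the brightest probe of each gene, the second Sec22b probe took -2.44, the second Ergic2 probe 2.04, both Trappc3 probes -0.90, the second Tmed3 probe 1.40, Bcap29 -0.22 and Ctage5 0.68. With the mean of probes, Sec22b stood at -0.91, Ergic2 at 0.51, Trappc3 at 1.35, Golga7 at 0.15 and Tmed3 at 0.072. Array weights, which gave WT replicate 3 a weight of 0.065, turned Arf6 to -0.75, Copb2 to -0.050, the third Trappc3 probe to 0.70, Tmed3 to -0.084, Sec63 to -0.43 and Arl1 to -0.32, and a floor of 64 turned Arf6 to -0.054. When 1 array was left out, the ranges that crossed 0 were -0.81 to 1.07 for Arf6, -1.82 to 0.87 for the third Trappc3 probe, -0.26 to 2.30 for Tmed3, -0.41 to 1.48 for Sec63, -0.52 to 1.67 for Arl1, -1.09 to 0.15 for the second Gorasp2 probe, -0.89 to 0.61 for Golga7 and -0.25 to 0.69 for Golga2. Sec14l and other probes at the floor without 1 array gave no value there. With replicate number as a block, 0 probes were called and 6 member probes had an unadjusted p under 0.05, 4 higher and 2 lower against 5 and 1 without it, with Trappc4 no longer and Arf3 now among them (Arf3 unadjusted p = 0.04 in limma). Same-numbered samples deviated together at r = 0.032 to 0.040, which does not pair them, although every sample correlated best with its own number. The cause of these changes was not tested, except where the alternative replaced the probe.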
